A study of Rattus norvegicus with 16 samples.

Results

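Calb1, Calb2, S100g, S100a4, S100a6, S100a8, S100a9, S100a10, S100a11 and S100b encode calcium-binding proteins, and their RNA was measured in cultured rat islets that had received an adenovirus or none. The 10 genes were named by symbol, all 10 had a probe set, and they stand among 14217 genes that the arrays measured through a probe set with 1 gene symbol. Each had 1 probe set, so no second probe set of a member could be compared with it. They were chosen by symbol as EF-hand genes with the log2 differences of these 3 comparisons already known, so their own differences are given as a description and not as tests.

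The arrays came from pancreatic islets of male Wistar rats aged 8 weeks. The 5 AdNkx6.1 arrays held islets given an adenovirus that expresses Nkx6.1, a transcription factor of beta cells; the 6 Adβgal arrays held islets given an adenovirus that expresses β-galactosidase, a bacterial enzyme used as a control; and the 5 untreated arrays held islets with no virus. All islets were cultured with 8 mM glucose and 10% serum. Both viruses were present for 18 h at what the labels give as the same approximate particle concentration, and the islets were collected at 48 h. The sources used here name neither the promoter that drives the delivered gene nor the share of islet cells that took up virus. The titles call the arrays biological replicates, but nothing says which islets came from separate rats, so every SD, SE and p measures the spread between these arrays only.

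Calbindins and S100 proteins bind calcium through EF-hands, paired helix-loop-helix motifs. Calbindin-D28k (Calb1), calretinin (Calb2) and calbindin-D9k (S100g) are mainly calcium buffers, and in intestine and kidney calbindins carry calcium through epithelial cells under the control of vitamin D. In rodent beta cells calbindin-D28k is known as a buffer that shapes calcium signals. S100 proteins are small dimers that bind partner proteins such as annexins, and S100a8 with S100a9 forms calprotectin, an abundant protein of neutrophils.

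Promoter sequences are shown for 3 members. S100a4 and S100a6 lie near each other on chromosome 2 with 1 annotated gene, S100a5, between them. Both read higher on Adβgal replicates 4, 5 and 6 than on the other Adβgal arrays. S100b was lower with either virus. RefSeq promoters of build GRCr8 were given for 5 of the 10 members; each spans 250 bases before to 50 bases after the annotated start. The S100a4 window is chr2:178388279-178388578 on the plus strand, the S100a6 window is chr2:178398287-178398586 on the plus strand, and the S100b window is chr20:12381032-12381331 on the minus strand. Capitals mark matches on either strand to common promoter motifs, searched as the letters TATAAA, as CCAAT, which can read ATTGG on the printed strand, and as GGGCGG, and no match overlapped another.
S100a4: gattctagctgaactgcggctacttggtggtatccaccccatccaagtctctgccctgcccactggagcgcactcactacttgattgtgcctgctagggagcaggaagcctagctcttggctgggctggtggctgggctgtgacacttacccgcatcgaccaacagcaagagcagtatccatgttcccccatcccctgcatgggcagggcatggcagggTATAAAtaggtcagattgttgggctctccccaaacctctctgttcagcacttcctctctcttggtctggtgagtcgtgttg
S100a6: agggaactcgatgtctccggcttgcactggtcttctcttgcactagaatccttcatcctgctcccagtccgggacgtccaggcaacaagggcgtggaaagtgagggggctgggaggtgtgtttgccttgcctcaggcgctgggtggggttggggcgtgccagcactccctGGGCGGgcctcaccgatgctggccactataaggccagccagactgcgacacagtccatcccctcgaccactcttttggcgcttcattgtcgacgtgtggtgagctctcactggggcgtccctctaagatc
S100b: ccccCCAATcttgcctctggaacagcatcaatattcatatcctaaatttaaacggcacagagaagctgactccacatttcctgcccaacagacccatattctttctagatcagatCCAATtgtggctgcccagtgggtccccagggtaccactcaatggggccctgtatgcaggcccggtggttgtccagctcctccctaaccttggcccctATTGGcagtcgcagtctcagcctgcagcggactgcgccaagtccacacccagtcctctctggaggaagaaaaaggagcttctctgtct

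The S100a4 window holds TATAAA with its first base 31 bases before the start. TATAAA is found in 14.2% of 33469 promoter windows of this length. The S100a6 window has no TATAAA and 1 GGGCGG, which 33.1% of windows hold. The S100b window has 3 CCAAT matches, a motif in 37.5% of windows. TTAATTA, letters that many homeodomain factors bind, was in 0 of the 5 member windows and in 3.02% of all windows. A match or its absence here describes these letters only and says nothing about binding of a factor.

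Values below are log2 of the deposited intensity, and a difference is the first-named group minus the second with its standard error (SE) from limma's fit over all 14217 genes. Between AdNkx6.1 and Adβgal, 2 of the 10 members passed an adjusted p of 0.05 in that fit, Calb1 and S100a4, both lower. The background was 25% of all genes in either direction, 16.6% higher and 8.48% lower. Between Adβgal and untreated, 2 passed, S100g and S100b, both lower, against a background of 7.01% of genes in either direction, 2.84% higher and 4.17% lower. Between AdNkx6.1 and untreated, 4 passed, Calb1, S100g, S100a4 and S100b, all lower, against 30.7% in either direction, 16.9% higher and 13.8% lower. Higher calls numbered 0 in each comparison, and at an unadjusted p of 0.05 they numbered 0, 1 (S100a11) and 0. Because these comparisons were in view when the members were named, nothing is read from these counts. The comparisons against untreated share the untreated arrays, and those with Adβgal share the Adβgal arrays.

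**Figure D1:**
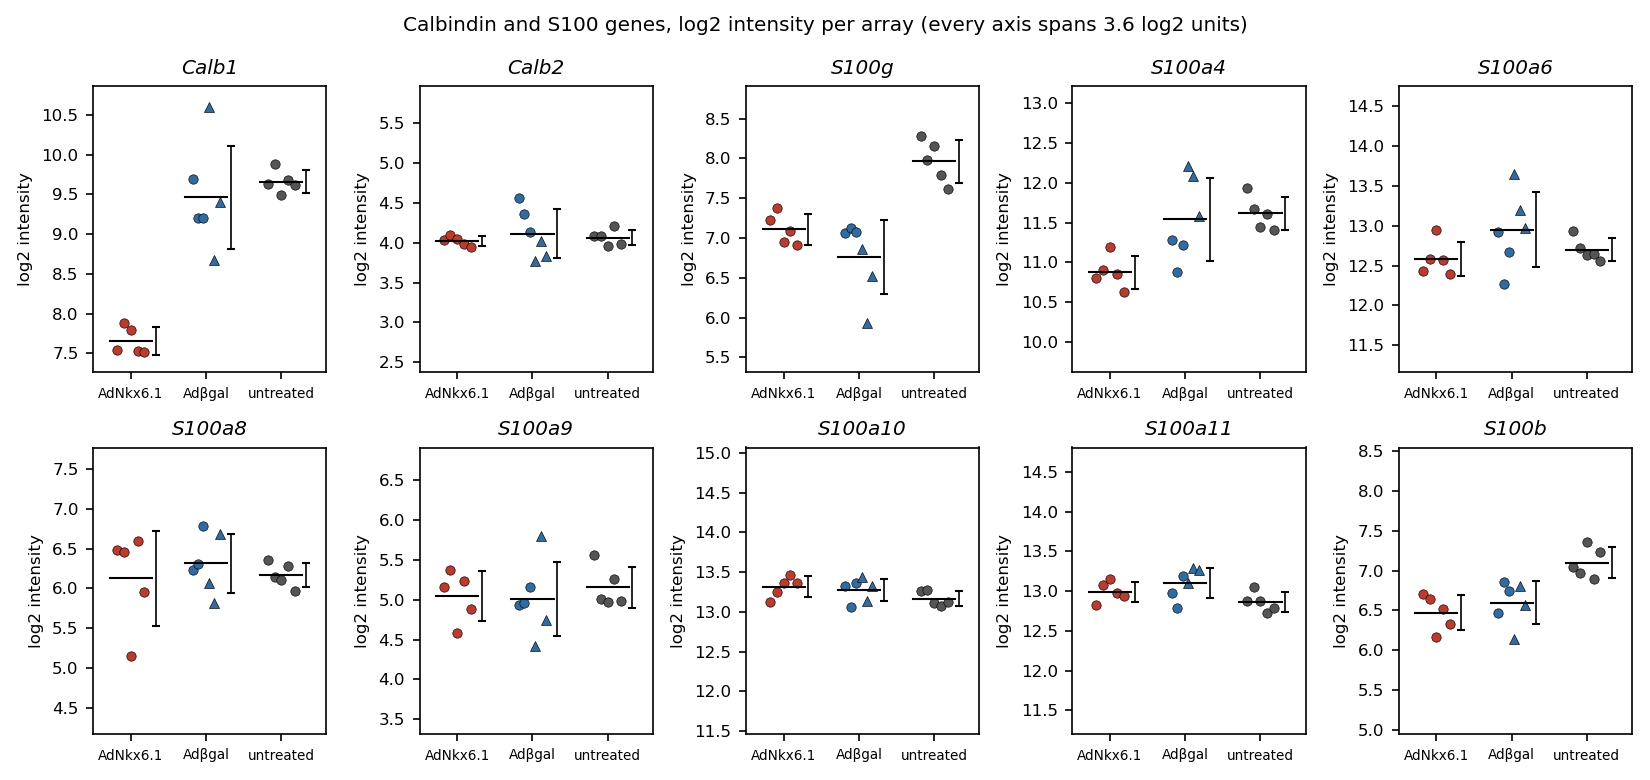
Log2 intensity of the 10 genes on every array (y axis, every panel spanning the same range) by group (x axis). Circles and triangles are arrays, triangles being Adβgal replicates 4, 5 and 6, horizontal lines are group means and bars are the SD. Calb1 lies between 7.52 and 7.89 with AdNkx6.1, below every other array, and S100g and S100b lie lower with both viruses than untreated.

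Some counts rest on single arrays. The count between AdNkx6.1 and Adβgal became 1 without AdNkx6.1 replicate 1, 4 or 5, each of which took away S100a4, and 3 without Adβgal replicate 2, which added S100a6. The count between Adβgal and untreated became 1 without Adβgal replicate 1, 4 or 6 or untreated replicate 1, 2, 3 or 5, each of which took away S100b, and 3 without Adβgal replicate 2, which added S100a11 as higher. With Adβgal replicates 4, 5 and 6 all left out, the 2 that passed between AdNkx6.1 and Adβgal were Calb1 and Calb2, and S100g was the 1 that passed between Adβgal and untreated. With all arrays, the groups did not overlap for 1 member between AdNkx6.1 and Adβgal (background 14.2% of genes, 10.4% higher and 3.78% lower), for 2 between Adβgal and untreated (6.88%, 2.05% higher and 4.83% lower) and for 4 between AdNkx6.1 and untreated (32.1%, 17.4% higher and 14.7% lower), in every case with the first group lower.

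Medians per array of the deposited intensity ran from 264.8 to 296.2. Beta cell markers were bright on all 16 arrays, with a mean of 6 measured markers of 13.67 to 13.83 with AdNkx6.1, 13.82 to 13.94 with Adβgal and 13.94 to 14.1 untreated. Nkx6-1 itself lay at 11.19 to 11.65 with AdNkx6.1, 11.65 to 12.13 with Adβgal and 12.09 to 12.33 untreated; whether the delivered construct contains the stretch this probe set reads is unknown, so these values are no test of the labels. Adβgal replicates 4, 5 and 6 stood apart: the mean of 12 acinar markers was 11.72, 11.09 and 11.2 on them, against 10.02, 9.11 and 10.43 on replicates 1, 2 and 3. The mean of 8 lymphocyte markers was 6.22, 6.75 and 6.68 on replicates 4, 5 and 6, against 4.83, 5.04 and 4.79 on replicates 1, 2 and 3. Differences of the members and named genes that use Adβgal are also given without these 3 arrays, a choice made after their values were seen.

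Calb1, the calbindin-D28k buffer, was lower with AdNkx6.1 than in both other groups. It read 7.55, 7.89, 7.79, 7.53 and 7.52 on the AdNkx6.1 arrays. With Adβgal it had a lowest value of 8.68, a median of 9.3 and a highest of 10.6, and untreated islets read 9.63, 9.88, 9.49, 9.68 and 9.61. All 5 AdNkx6.1 arrays were below all 11 others, whereas the Adβgal range enclosed the untreated one. The AdNkx6.1 mean was 7.66 ± 0.17 (SD, n = 5), against 9.46 ± 0.65 with Adβgal (n = 6), a difference of -1.81 ± 0.24 or 3.5-fold lower. Against untreated islets, at 9.66 ± 0.14, it was -2 ± 0.25 or 4.01-fold lower. Adβgal minus untreated was -0.2 ± 0.24, within its error, and -0.3 ± 0.13 without Adβgal replicates 4, 5 and 6. The difference between AdNkx6.1 and Adβgal without those 3 arrays was -1.71 ± 0.13, and over all settings that left out 1 array it ran from -1.96 to -1.58.

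In bulk RNA of islets, fewer cells of a type and less RNA per cell cannot be told apart. Beside Calb1, the mean of 9 markers of the other islet endocrine cells was lower with AdNkx6.1. It ran from 11.31 to 11.61 with AdNkx6.1, 11.73 to 12.12 with Adβgal and 11.94 to 12.09 untreated. Not every marker separated the groups. Gcg, the brightest, averaged 14.59 with AdNkx6.1, 14.62 with Adβgal and 14.61 untreated, with overlapping ranges. The ranges of Ppy, Ghrl, Irx2 and Ttr also overlapped between AdNkx6.1 and Adβgal. Of these 9, 5 passed as lower between AdNkx6.1 and Adβgal. Of 6 beta cell markers, 1 passed as lower in that comparison, where 8.48% of all genes were called lower. Against untreated islets 6 of the 9 and 4 of the 6 passed as lower with AdNkx6.1, where 13.8% of all genes were called lower. Their part in the Calb1 difference was not tested.

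Calb2, calretinin, stayed at the low end of the scale. Its mean over the 16 arrays exceeded that of 5.35% of genes, and no detection call was used, so it cannot be said to be above background. It read 3.94 to 4.1 with AdNkx6.1, 3.78 to 4.56 with Adβgal and 3.96 to 4.21 untreated. All 3 groups overlapped. The difference between AdNkx6.1 and Adβgal was -0.092 ± 0.12 and that between Adβgal and untreated 0.049 ± 0.12 with all arrays. Without Adβgal replicates 4, 5 and 6 they were -0.33 ± 0.09 and 0.29 ± 0.09, and the AdNkx6.1 arrays lay below the 3 that remained, and Calb2 averaged 4.35 on these 3 and 3.88 on replicates 4, 5 and 6.

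S100g, calbindin-D9k, was lower with either virus. It read 7.22, 7.37, 6.95, 7.09 and 6.91 with AdNkx6.1. With Adβgal its lowest value was 5.94, its median 6.96 and its highest 7.12, and untreated islets read 8.28, 7.97, 8.16, 7.79 and 7.61. Every array with a virus was below every untreated array, and the 2 virus groups overlapped. Adβgal averaged 6.76 ± 0.46 (n = 6), against 7.96 ± 0.27 untreated (n = 5), a difference of -1.2 ± 0.19 or 2.3-fold lower. Without Adβgal replicates 4, 5 and 6 this was -0.88 ± 0.14, still with no overlap. AdNkx6.1 averaged 7.11 ± 0.19, a difference of -0.86 ± 0.2 from untreated or 1.81-fold lower. AdNkx6.1 minus Adβgal was 0.35 ± 0.19 with all arrays and 0.022 ± 0.14 without those 3.

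The order of group means was AdNkx6.1, Adβgal, untreated for Calb1 and Adβgal, AdNkx6.1, untreated for S100g, from low to high. Neighbours that did not differ beyond their spread were Adβgal and untreated for Calb1, and Adβgal and AdNkx6.1 for S100g.

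**Figure D2:**
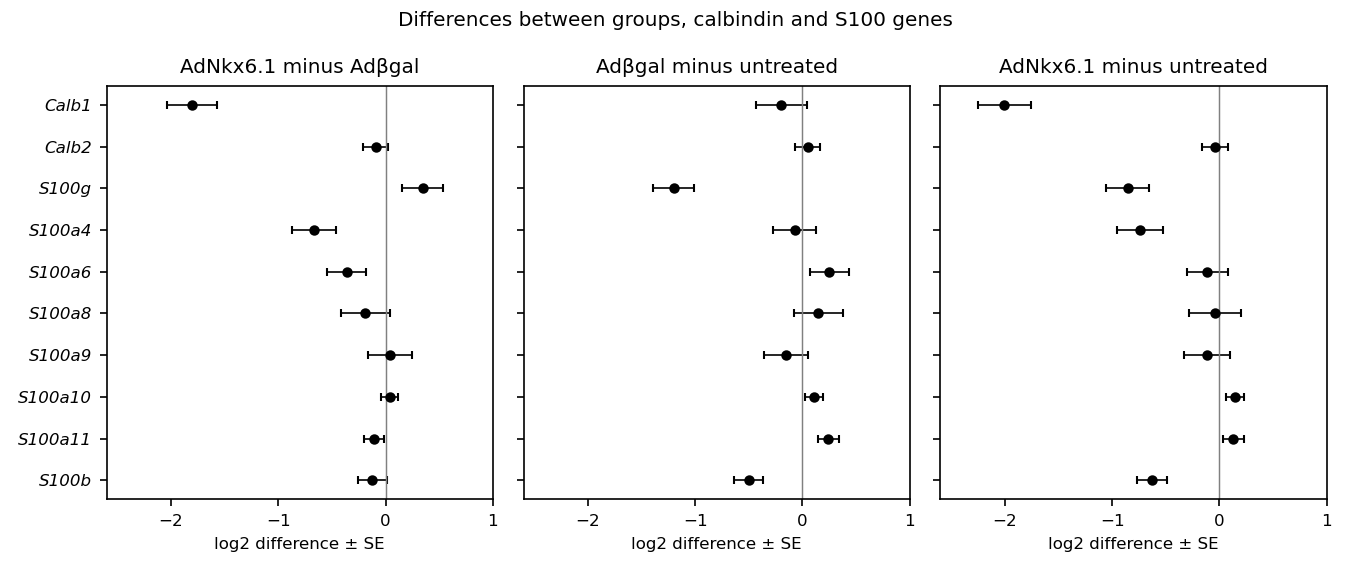
Log2 differences between groups (x axis) for each of the 10 genes (y axis), as points with the SE of limma's fit, in 3 panels, 1 for each comparison. Calb1 is at -1.81 in AdNkx6.1 minus Adβgal and -2 in AdNkx6.1 minus untreated, and S100g is at -1.2 in Adβgal minus untreated. S100a8, S100a9, S100a10 and S100a11 lie within 0.25 of 0 in all 3 panels.

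Of the S100 genes, S100a4, which binds myosin and is widely used as a marker of fibroblasts and some leukocytes, was lowest with AdNkx6.1. It read 10.8, 10.9, 11.2, 10.85 and 10.62 with AdNkx6.1. With Adβgal its lowest value was 10.87, its median 11.43 and its highest 12.21, and untreated islets read 11.94, 11.67, 11.45, 11.61 and 11.41. The AdNkx6.1 arrays all lay below the untreated ones and overlapped the Adβgal range. AdNkx6.1 averaged 10.88 ± 0.21 (n = 5), against 11.62 ± 0.21 untreated (n = 5), a difference of -0.74 ± 0.21 or 1.67-fold lower. Against Adβgal, at 11.54 ± 0.52 (n = 6), it was -0.67 ± 0.2 or 1.59-fold lower.

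That second difference rested on the Adβgal arrays that stood apart. Replicates 4, 5 and 6 averaged 11.96 for S100a4 and replicates 1, 2 and 3 averaged 11.13. Replicate 6, at 11.58, lay within the untreated range. Without replicates 4, 5 and 6 AdNkx6.1 minus Adβgal was -0.25 ± 0.14, and Adβgal minus untreated became -0.49 ± 0.14, against -0.073 ± 0.2 with all arrays. In that setting the 3 Adβgal arrays lay below every untreated array. The mean of 11 stellate cell and fibroblast markers ran from 11.05 to 11.2 with AdNkx6.1, 10.79 to 11.53 with Adβgal and 10.99 to 11.22 untreated. The mean of 12 macrophage markers ran from 9.26 to 9.91 with AdNkx6.1, 9.59 to 10.32 with Adβgal and 9.55 to 9.84 untreated. These lists, like the acinar and lymphocyte lists above, overlapped between the groups. Within Adβgal both read higher on replicates 4, 5 and 6. There the stellate and fibroblast mean was 11.5, 11.53 and 11.35, against 10.79, 11.21 and 11.33 on replicates 1, 2 and 3. The macrophage mean was 9.77, 9.82 and 10.32, against 9.7, 9.59 and 9.74. The part of these lists in the S100a4 difference was not tested.

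S100a6, calcyclin, the neighbour of S100a4, also read higher on Adβgal replicates 4, 5 and 6 than on the other Adβgal arrays. It read 12.44, 12.59, 12.94, 12.57 and 12.39 with AdNkx6.1, ran from 12.26 to 13.65 with a median of 12.95 with Adβgal, and read 12.94, 12.72, 12.63, 12.64 and 12.56 untreated. All groups overlapped. Replicates 4, 5 and 6 of Adβgal averaged 13.28 and replicates 1, 2 and 3 averaged 12.62. Replicate 6 read 12.98, close to 12.93 on replicate 1. AdNkx6.1 minus Adβgal was -0.36 ± 0.18 with all arrays and -0.035 ± 0.15 without replicates 4, 5 and 6. Adβgal minus untreated was 0.25 ± 0.18 with all arrays and -0.079 ± 0.15 without those 3. AdNkx6.1 minus untreated was -0.11 ± 0.19, so S100a6 did not share the lower level of S100a4 against untreated islets beyond its error.

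**Figure D3:**
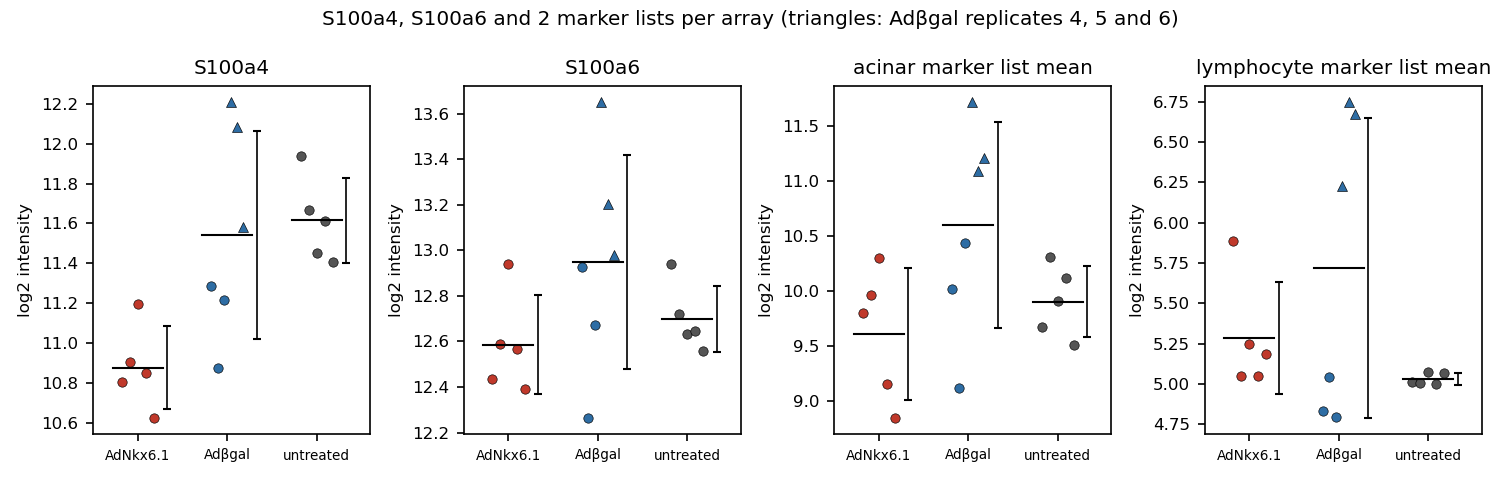
Log2 intensity of S100a4 and S100a6 and mean log2 intensity of the acinar and lymphocyte marker lists (y axes) on every array, by group (x axis). Horizontal lines are means, bars are the SD, and triangles are Adβgal replicates 4, 5 and 6, which average 11.96 for S100a4 and 13.28 for S100a6 and carry the highest values of both marker lists.

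S100a10, the annexin A2 partner p11, and S100a11, a partner of annexin A1, varied little. S100a10 ran from 13.12 to 13.47 with AdNkx6.1, 13.06 to 13.44 with Adβgal and 13.07 to 13.27 untreated. Its differences were 0.039 ± 0.081 between AdNkx6.1 and Adβgal, 0.11 ± 0.081 between Adβgal and untreated and 0.15 ± 0.085 between AdNkx6.1 and untreated. S100a11 ran from 12.82 to 13.15 with AdNkx6.1, 12.79 to 13.29 with Adβgal and 12.72 to 13.06 untreated. Its differences were -0.11 ± 0.096, 0.24 ± 0.096 and 0.13 ± 0.1 in the same order of comparisons. In the 2 comparisons that use Adβgal, leaving out its replicates 4, 5 and 6 gave 0.065 ± 0.092 and 0.083 ± 0.092 for S100a10 and 0.0061 ± 0.1 and 0.12 ± 0.1 for S100a11. All 3 groups overlapped for both genes, which lie on chromosome 2 with 1 annotated pseudogene between them.

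S100a8 and S100a9, the pair that forms calprotectin, are adjacent genes on chromosome 2 and lay low on the scale. Their means exceeded those of 20.2% and 12.6% of genes. S100a8 read 5.15 to 6.59 with AdNkx6.1, 5.81 to 6.79 with Adβgal and 5.96 to 6.36 untreated. S100a9 read 4.58 to 5.38 with AdNkx6.1, 4.42 to 5.8 with Adβgal and 4.98 to 5.57 untreated. Neither gene separated any pair of groups. The differences of S100a8 lay between -0.19 ± 0.23 and 0.15 ± 0.23, and those of S100a9 between -0.15 ± 0.21 and 0.042 ± 0.21. With Adβgal replicates 4, 5 and 6 left out, AdNkx6.1 minus Adβgal was -0.32 ± 0.27 for S100a8 and 0.029 ± 0.18 for S100a9, and Adβgal minus untreated was 0.27 ± 0.27 and -0.14 ± 0.18.

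The mean of 7 measured neutrophil markers overlapped between the groups. It ran from 5.52 to 5.92 with AdNkx6.1, 5.48 to 6.02 with Adβgal and 5.47 to 5.75 untreated. Of the 7, limma called 1 as lower between AdNkx6.1 and untreated, where 13.8% of all genes were called lower. The dim marker Mmp8 read 4.08 to 4.3 with AdNkx6.1, 4.17 to 4.55 with Adβgal and 4.47 to 4.86 untreated. Mmp9 went the other way but was not called. It read 5.92 to 6.7 with AdNkx6.1, 5.01 to 7.76 with Adβgal and 4.58 to 5.89 untreated. The granulocyte receptor gene Csf3r exceeded 1.2% of genes, at 3.31 to 3.48 with AdNkx6.1, 3.27 to 3.94 with Adβgal and 3.32 to 3.51 untreated. Lcn2, which epithelial cells also make, was the brightest of the list, at 11.76 to 12.58, 11.49 to 12.73 and 11.71 to 12.26 in the same order of groups. On Adβgal replicates 4, 5 and 6, where lymphocyte markers read high, S100a8 averaged 6.19, and on replicates 1, 2 and 3 it averaged 6.44. The neutrophil list mean was 5.79, 5.96 and 6.02 on replicates 4, 5 and 6, against 5.7, 5.48 and 5.54 on replicates 1, 2 and 3. A link between these lists and S100a8 was not tested.

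S100b, a glial S100 protein found in Schwann cells around islets, was lower with either virus. It read 6.7, 6.64, 6.17, 6.52 and 6.33 with AdNkx6.1. With Adβgal its lowest value was 6.13, its median 6.65 and its highest 6.85, and untreated islets read 7.04, 6.96, 7.36, 6.89 and 7.23. Every array with a virus was below every untreated array. AdNkx6.1 averaged 6.47 ± 0.22 (n = 5), against 7.1 ± 0.19 untreated (n = 5), a difference of -0.63 ± 0.14 or 1.54-fold lower. Adβgal averaged 6.6 ± 0.27 (n = 6), a difference of -0.5 ± 0.14 from untreated or 1.42-fold lower, and -0.41 ± 0.14 without replicates 4, 5 and 6. AdNkx6.1 minus Adβgal was -0.12 ± 0.14, within its error, and -0.22 ± 0.14 without those 3 arrays.

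The mean of 6 Schwann and glial markers ran from 6.16 to 6.7 with AdNkx6.1, 6.07 to 6.57 with Adβgal and 6.54 to 6.77 untreated. Of these 6, 1 passed as lower between Adβgal and untreated and 1 between AdNkx6.1 and untreated, where 4.17% and 13.8% of all genes were called lower. Between AdNkx6.1 and Adβgal 1 of the 6 passed as higher, where 16.6% of all genes were called higher. Their part in the S100b difference was not tested. S100b exceeded 23.4% of genes in mean level, and no detection call was used, so it is not shown to be above background.

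Profiles most like those of the members were sought for the 2 genes whose values ranged over more than 2 log2 units, Calb1 and S100g, among 7073 genes. The measure was the root mean square difference of log2 values over the 16 arrays after centring each gene on its mean, so it includes the group differences. Nearest to Calb1 were Gnat3, the taste G protein gustducin, at 0.36, the ETS factor gene Etv1 at 0.44 and the retinol carrier gene Rbp4 at 0.45, against a median of 0.98 over all genes compared. Gnat3 averaged 8.83 ± 0.31 with AdNkx6.1, 10.48 ± 0.49 with Adβgal and 10.35 ± 0.19 untreated. Etv1 averaged 11.94 ± 0.32, 13.06 ± 0.37 and 13.09 ± 0.088, and Rbp4 10.62 ± 0.22, 11.76 ± 0.28 and 11.98 ± 0.11, in the same order.

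Nearest to S100g were Tent5c, a poly(A) polymerase gene, at 0.28, Idi1, an enzyme gene of isoprenoid and sterol synthesis, at 0.29, and Bhlha15, a transcription factor gene of secretory cells, at 0.3, against a median of 0.6. Idi1 averaged 11.07 ± 0.16 with AdNkx6.1, 10.86 ± 0.3 with Adβgal and 11.61 ± 0.12 untreated. Bhlha15 averaged 10.09 ± 0.23 with AdNkx6.1, 9.86 ± 0.27 with Adβgal and 10.64 ± 0.04 untreated. Tent5c averaged 10.34 ± 0.1, 10.23 ± 0.42 and 10.89 ± 0.18 in that order.

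**Figure D4:**
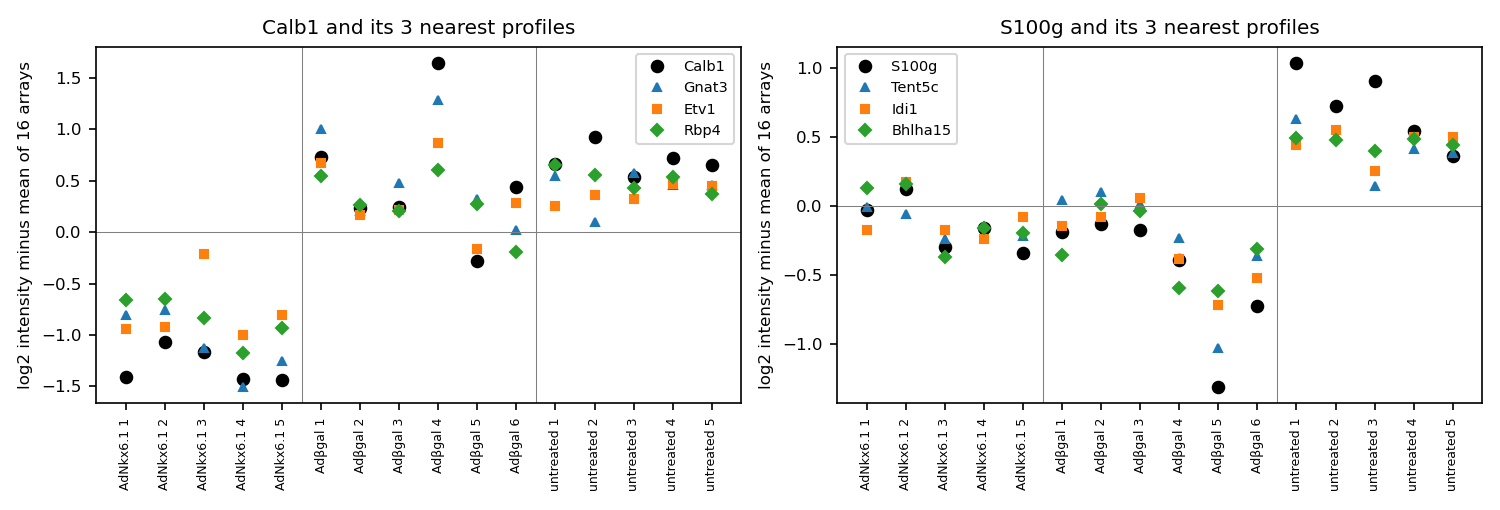
Log2 intensity minus the gene's mean over 16 arrays (y axis) on each array (x axis) for Calb1 and for S100g with their 3 nearest genes. Points are arrays, vertical lines part the groups and black circles are the member. The profiles nearest to Calb1 are lowest with AdNkx6.1, and those nearest to S100g are higher untreated than with either virus. Because the genes were chosen for likeness over these arrays, this shared pattern follows from the choice.

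The other calcium-binding genes were read from 5 lists of 98 genes, of which 78 were measured. These genes are not members, and their tests are limma's, adjusted over all 14217 genes. The lists were drawn up with earlier results of these data known, so nothing is read from their counts against the background. Between AdNkx6.1 and Adβgal 18 of the 78 rose and 8 fell, 33.3% against the background of 25%. Of all genes 16.6% rose and 8.48% fell there. Between Adβgal and untreated 2 rose and 2 fell, 5.13% against 7.01% (2.84% higher and 4.17% lower). Between AdNkx6.1 and untreated 18 rose and 9 fell, 34.6% against 30.7% (16.9% higher and 13.8% lower). The median log2 difference of the 78 genes was 0.057, -0.033 and 0.023 in the 3 comparisons, and that of all genes 0.017, -0.037 and -0.012. With Adβgal replicates 4, 5 and 6 left out, 34 of the 78 passed between AdNkx6.1 and Adβgal, where 28.3% of all genes did (4028), and 1 between Adβgal and untreated, where 3.88% did (552).

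Of 8 measured S100 relatives that are not members, 2 rose with AdNkx6.1 against Adβgal and 0 fell, also at an unadjusted p of 0.05 (median 0.26). These calls are 25% of the 8, the same share as over all genes. S100a1, known for binding to calcium-handling proteins of heart muscle, averaged 11.39 ± 0.29 with AdNkx6.1 (n = 5), against 10.09 ± 0.29 with Adβgal (n = 6), a rise of 1.3 ± 0.15 or 2.46-fold (limma adjusted p = 7.4e-06). Against untreated islets, at 9.74 ± 0.15, its rise was 1.65 ± 0.15 or 3.13-fold (limma adjusted p = 8.4e-07). Every AdNkx6.1 array lay above every other array for this gene, and without Adβgal replicates 4, 5 and 6 the rise against Adβgal was 1.19 ± 0.15. The other riser was Tchh, a hair follicle protein with an S100-like domain, at 7.97 ± 0.22 with AdNkx6.1, against 4.33 ± 0.35 with Adβgal, and 4.38 ± 0.13 untreated (limma adjusted p = 8.6e-11 and 2.7e-10); both are low on the scale and not shown to be above background, so no fold is given. S100a3, S100a5, S100a13, S100a14, S100a16 and S100vp did not pass in any comparison. For Adβgal against untreated, limma called 0 of the 8, while 4 were higher and 1 lower at an unadjusted p of 0.05.

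Of 36 measured cytosolic EF-hand buffers and sensors, 9 rose and 5 fell with AdNkx6.1 against Adβgal (median 0.081). These calls are 38.9% of the list, against 25% of all genes. Parvalbumin (Pvalb), a buffer best known from fast muscle and interneurons, rose 2.94-fold, at 6.63 ± 0.23 with AdNkx6.1 against 5.08 ± 0.49 with Adβgal (limma adjusted p = 2.1e-05). The integrin-binding genes Cib2 and Cib1 rose 2.76-fold and 1.77-fold, by 1.47 ± 0.14 (adjusted p = 1.7e-06) and 0.82 ± 0.1 (adjusted p = 2e-05). Capns1, the small subunit of calpain, rose 1.26-fold (0.33 ± 0.054, adjusted p = 0.00029). Kcnip1, a potassium channel subunit gene, fell 1.47-fold (-0.55 ± 0.09, adjusted p = 0.00026). Cabp1, a calmodulin-like regulator of channels, fell 2.04-fold (-1.03 ± 0.2, adjusted p = 0.0012). Calml4 fell 1.75-fold (-0.8 ± 0.17, adjusted p = 0.0028) and Vsnl1, a neuronal calcium sensor, fell 1.46-fold (-0.55 ± 0.14, adjusted p = 0.0082). Without Adβgal replicates 4, 5 and 6 these differences were 1.67 for Pvalb, 1.49 for Cib2, 0.82 for Cib1, 0.32 for Capns1, -0.56 for Kcnip1, -0.73 for Cabp1, -0.94 for Calml4 and -0.6 for Vsnl1, and all 8 calls held. The buffer gene Pvalb was thus higher with AdNkx6.1, where the member Calb1 was lower; Pvalb was low on the scale with Adβgal, where it is not shown to be above background.

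Of 18 EF-hand genes of the secretory pathway and matrix, 3 rose and 2 fell in that comparison (median 0.013), 27.8% against 25% of all genes. Fkbp10, a collagen-folding isomerase gene, rose 1.41-fold (0.5 ± 0.099, limma adjusted p = 0.0014), and Rcn3, a reticulocalbin gene, rose 1.23-fold (0.3 ± 0.068, adjusted p = 0.0039). Stim2, a sensor of calcium in the endoplasmic reticulum, fell 1.29-fold (-0.37 ± 0.1, adjusted p = 0.013). Rcn2, a second reticulocalbin gene, rose 1.21-fold (adjusted p = 0.047) and Fkbp7 fell 1.42-fold (adjusted p = 0.037), but both calls were lost when single arrays were left out. Leaving out any 1 of the AdNkx6.1 arrays 1, 2, 4 and 5 ended both. The Rcn2 call also ended when Adβgal array 1, 2, 3 or 6 was dropped (adjusted p 0.065 to 0.12), and the Fkbp7 call when Adβgal array 4 was dropped (adjusted p 0.067 to 0.08). With Adβgal replicates 4, 5 and 6 all left out, Fkbp7 differed by -0.22 ± 0.11 (adjusted p = 0.18), against -0.51 ± 0.17 with all arrays. The other 4 calls held there, at 0.56 for Fkbp10, 0.26 for Rcn3, 0.39 for Rcn2 and -0.35 for Stim2. Against untreated islets, limma for Adβgal called 0 of the 18, with 2 higher and 3 lower at an unadjusted p of 0.05.

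Of 9 measured partners of the S100 proteins, Anxa11, an annexin that binds S100a6, rose 1.21-fold with AdNkx6.1 against Adβgal (0.27 ± 0.073, limma adjusted p = 0.012), and Myh9, the myosin that S100a4 binds, rose 1.18-fold (0.24 ± 0.065, adjusted p = 0.013). Both calls held without Adβgal replicates 4, 5 and 6, at 0.31 and 0.23. Anxa2, the S100a10 partner, differed by -0.13 ± 0.11 and Anxa1, the S100a11 partner, by -0.36 ± 0.16, and neither passed. Ager, a receptor for S100 proteins, averaged 7.97 ± 0.26 with Adβgal, against 7.45 ± 0.18 untreated, a rise of 0.51 ± 0.12 (limma adjusted p = 0.015). Its difference was 0.3 ± 0.1, with an adjusted p of 0.12, when Adβgal replicates 4, 5 and 6 were left out.

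Of 7 measured genes of vitamin D signalling and calcium transport, 2 rose and 1 fell with AdNkx6.1 against Adβgal (median 0.099), and Rxra, Trpv5, Atp2b1 and Slc8a1 did not pass. These calls are 42.9% of the 7, against 25% of all genes. Cyp27b1, which makes active vitamin D, rose 2.46-fold, at 7.84 ± 0.095 with AdNkx6.1 against 6.54 ± 0.26 with Adβgal (limma adjusted p = 1.1e-06). Vdr, the vitamin D receptor, rose 2.29-fold, at 7.24 ± 0.82 against 6.05 ± 0.31 (adjusted p = 0.0079). The AdNkx6.1 arrays overlapped the Adβgal arrays for Vdr, and without Adβgal replicates 4, 5 and 6 its change was 0.94 ± 0.38 with an adjusted p of 0.08. Trpv6, an epithelial calcium channel, fell 1.69-fold, at 7.34 ± 0.42 against 8.1 ± 0.38 (adjusted p = 0.013). Without those 3 arrays Cyp27b1 differed by 1.48 ± 0.11 and Trpv6 by -0.61 ± 0.21 (adjusted p = 0.047). For Adβgal against untreated limma called 0 of the 7, with 0 higher and 2 lower at an unadjusted p of 0.05.

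The other calls between Adβgal and untreated were in the cytosolic list, 1 higher and 2 lower of 36, or 8.33% against 7.01% of all genes. Cabp1 rose 1.64-fold (0.71 ± 0.2, limma adjusted p = 0.041), Vsnl1 fell 1.45-fold (-0.54 ± 0.14, adjusted p = 0.029) and Kcnip3 fell 1.41-fold (-0.49 ± 0.13, adjusted p = 0.03). All 3 calls were lost without Adβgal replicate 6 or untreated replicate 2, 4 or 5, those of Kcnip3 and Cabp1 also without untreated replicate 1, and those of Vsnl1 and Cabp1 also without untreated replicate 3. Their adjusted p then lay between 0.053 and 0.099. The differences without Adβgal replicates 4, 5 and 6 were 0.42 ± 0.11 for Cabp1, -0.49 ± 0.18 for Vsnl1 and -0.33 ± 0.11 for Kcnip3, with adjusted p-values of 0.053, 0.14 and 0.11.

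Against untreated islets, AdNkx6.1 gave calls for 13 of the 36 cytosolic genes, 8 higher and 5 lower, or 36.1% against 30.7% of all genes. Cib2, Cib1 and Pvalb rose 2.73-fold, 1.81-fold and 2.61-fold (limma adjusted p of 2.8e-06, 1.6e-05 and 8.5e-05), and Hpcal4, a neuronal sensor low on the scale, rose 2.09-fold (adjusted p = 0.0013). Untreated islets averaged 5.25 for Pvalb and 4.76 for Hpcal4, levels not shown to be above background, so these folds are uncertain. Vsnl1 fell 2.13-fold (adjusted p = 3.6e-05), Kcnip1 1.55-fold (adjusted p = 9.7e-05) and Calml4 1.6-fold (adjusted p = 0.01). Cetn2, a centrosome gene, fell 1.24-fold (adjusted p = 0.017), a call lost without AdNkx6.1 replicate 4 (adjusted p = 0.051).

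In the other lists, that comparison gave rises of Fkbp10 (1.62-fold, limma adjusted p = 9.5e-05), Rcn3 (1.26-fold, 0.0021), Ager (1.43-fold, 0.004), Myh9 (1.2-fold, 0.0071), Cyp27b1 (2.25-fold, 4.4e-06) and Vdr (2.42-fold, 0.0058). Slc8a1, the sodium-calcium exchanger NCX1, fell 1.32-fold (adjusted p = 0.0027). 5 further calls were lost when single arrays were left out. Rcn2 (1.25-fold higher, adjusted p = 0.024) was lost without any of 6 arrays, Anxa11 (1.16-fold higher, 0.038) without any of 8, Cacybp (1.18-fold lower, 0.032) without any of 7, Nucb2 (1.22-fold lower, 0.041) without any of 9 and Stim2 (1.26-fold lower, 0.021) without any of 4. The adjusted p of these 5 genes then lay between 0.051 and 0.094.

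**Figure D5:**
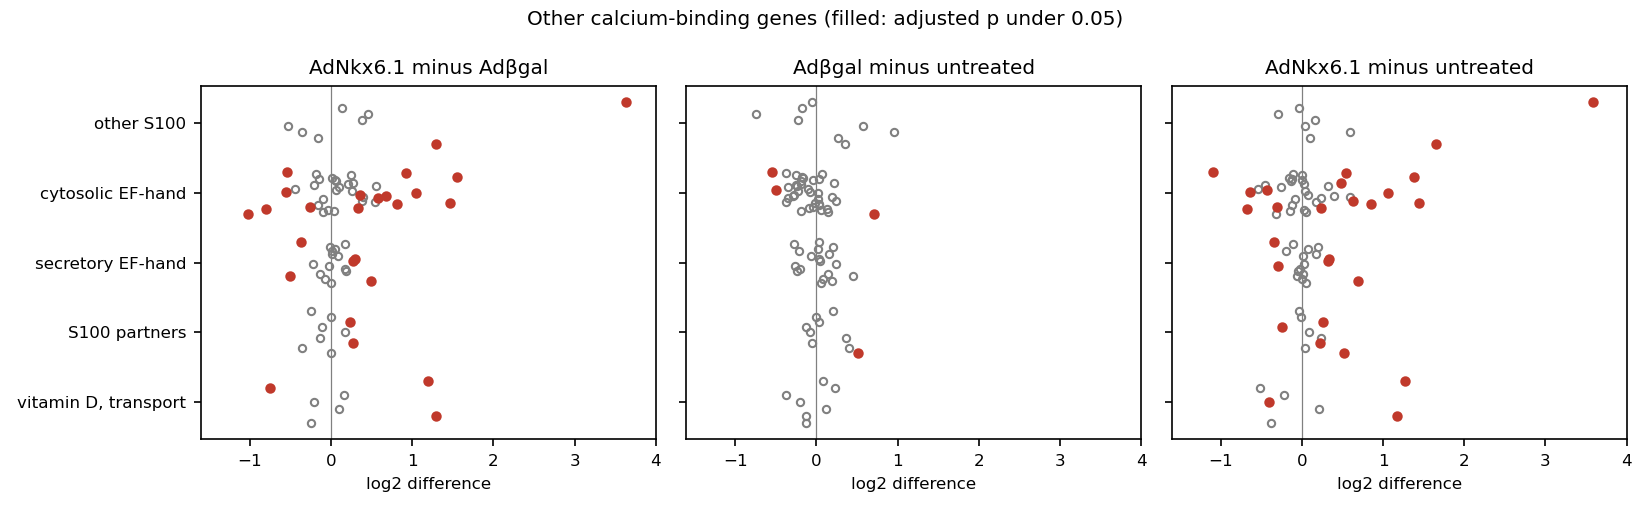
Log2 difference (x axis) of each measured gene of the 5 calcium-binding lists (y axis), in 3 panels, 1 for each comparison. Filled points passed an adjusted p of 0.05 and open points did not. With AdNkx6.1, Tchh lies farthest to the right, and between Adβgal and untreated 4 of 78 points are filled.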

How the data were processed

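RNA of 16 islet samples was measured on 1-colour Affymetrix-type probe set arrays. The deposited values are intensity values on a linear scale, which the authors made with RMA (background correction, normalization between arrays, summary of probes), per the submitters' processing notes; its version and the return to a linear scale are not given in the sources used here. The table ran from 6.25 to 35765, and no 2 arrays were identical. The labels state 5 replicates per condition and the table holds 6 Adβgal arrays, all used. The number of arrays limits the precision.

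The planned test assumed log2 values in the table; since they are linear, log2 was taken first, with no pseudocount. Of 31099 probe sets, 57 controls were left out, 20826 had 1 symbol in the platform annotation, 436 several and 9780 none; 20758 matched RefSeq by gene number, with 0 symbols changed. Each gene was its probe set of highest mean. Testing used limma 3.58.1 under R 4.3.3 (1 fit over 3 groups, 2-sided, Benjamini-Hochberg over 14217 genes, threshold 0.05), checked on simulated data. Tables and figures used Python 3.11.15, pandas 2.3.3 and matplotlib 3.10.9.

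The members, the 5 calcium-binding lists and the 10 marker lists (88 of 110 marker genes measured: beta, other endocrine, neutrophil, macrophage, lymphocyte, acinar, duct, stellate, endothelial and glial) were chosen with earlier results of these data known. The members are all named, with up to 4 genes of each calcium-binding list per direction and comparison by smallest p, and the 3 nearest profiles (genes brighter than the median) of a member ranging over more than 2 log2 units. Alternatives were the mean of all probe sets, every probe set, quantile normalization, dim genes left out, log2(value + 32), 2 groups only, trend and robust variance, a replicate block and single arrays left out. The labels give no batch.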

Additional observations from a re-analysis of the deposited data

How the results depend on the processing

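No called member difference changed sign under any alternative run, and of 562 member values 6 moved by more than the SD pooled over the 3 groups, all without Adβgal replicates 4, 5 and 6. They were the differences of Calb2, S100a4 and S100a6 in both comparisons that use Adβgal; none of the 562 moved by more than the larger SD of the groups compared, which for these genes is that of Adβgal and includes those arrays. Among values of named list genes under alternatives, 763 kept their direction and call and 97 lost the call in the same direction.

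Some settings test a different number of features. Every probe set is more than the 14217 genes, and leaving dim genes out keeps only genes above the median level. Counts under these settings therefore do not compare with the main counts as shares. Genes called between AdNkx6.1 and Adβgal numbered 3560 (2354 higher, 1206 lower), 6196 probe sets with every probe set tested (3408 higher, 2788 lower) and 2164 with dim genes left out. Between Adβgal and untreated 997 were called, 2685 probe sets with every probe set, 521 with 2 groups only, 552 without Adβgal replicates 4, 5 and 6, and 509 to 1503 with 1 array left out. Between AdNkx6.1 and untreated the count was 4360, and 2656 with dim genes left out. Calcium-binding list genes called between AdNkx6.1 and Adβgal numbered 26, and 15 with dim genes left out. Between Adβgal and untreated the 4 became 2 with the mean of probe sets, 7 with trend and robust variance, 1 without Adβgal replicates 4, 5 and 6, 1 to 10 with 1 array left out, and 0 in limma with 2 groups only (21 at an unadjusted p of 0.05).

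Members called between AdNkx6.1 and Adβgal were 2, with 1 in the fit of 2 groups only and 1 to 3 with 1 array left out. With dim genes left out the count was 1, because Calb1, below the median level of all genes, was no longer tested. Without Adβgal replicates 4, 5 and 6 the 2 were Calb1 and Calb2. Between Adβgal and untreated the 2 became 1 with 2 groups only or without Adβgal replicates 4, 5 and 6, 1 to 3 with 1 array left out, and 0 with dim genes left out (1 at an unadjusted p of 0.05), where S100g and S100b were no longer tested. Between AdNkx6.1 and untreated the 4 became 1 with dim genes left out, where Calb1, S100g and S100b were no longer tested.

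Deviations of same-numbered arrays correlated between -0.387 and 0.249. These values cannot show whether arrays of the same number shared islets, and the main fit did not use the numbers. With a replicate block members called became 1 between AdNkx6.1 and Adβgal and 1 between Adβgal and untreated, where list genes became 0 in limma (16 at an unadjusted p of 0.05) and all genes 393. The cause of these shifts was not tested.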

Other observations

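The mean of 8 measured duct markers ran from 11.3 to 11.56 with AdNkx6.1, 10.92 to 11.46 with Adβgal and 11.02 to 11.17 untreated. Of the 8, limma called 4 as higher in AdNkx6.1 against Adβgal, and 4 as higher against untreated, where 16.6% and 16.9% of all genes were called higher. The mean of 9 endothelial markers ran from 9.31 to 10.5 with AdNkx6.1, 8.54 to 11.28 with Adβgal and 9.53 to 9.81 untreated, the narrowest of the 3 ranges. In 30 sets of 1 member in 1 group, 0 had an array beyond Dixon's limit.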
